A study of Mus musculus with 9 samples.

Results

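The genes described here encode 10 cathepsins, the proteases of lysosomes and secretory granules. They were chosen by symbol, with differences of these genes between the populations already known from earlier results of the same arrays (Ctsh, Ctsl, Ctss, Ctsb, Ctsd, Ctsw, Ctsc, Ctsz, Ctsa and Ctse), and all 10 were measured among 19938 genes. Genes with several rows were represented by the brightest on average over the 9 arrays, but each cathepsin had a single row. Expression was measured on Affymetrix Mouse Gene 1.0 ST arrays in intraepithelial lymphocytes from the small intestine of NOD-SCID mice, 8 to 10 weeks old, a strain without mature T and B cells. Cells negative for CD3 and positive for CD45 were sorted, to a stated purity over 98%, into Ly49E+CD8aa+, Ly49E+CD8aa- and Ly49E-CD8aa+ cells, with 3 arrays each. Ly49E is a lectin-like receptor of natural killer (NK) cells encoded by Klra5, and CD8aa consists of paired CD8 alpha chains, the product of Cd8a. The labels call the arrays biological replicates but do not say how many mice gave cells to each.

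Cathepsins are made as inactive precursors and become active in the acid of endosomes and lysosomes. Most are cysteine proteases of the papain family (Ctsh, Ctsl, Ctss, Ctsb, Ctsz, Ctsc and Ctsw), while Ctsd and Ctse are aspartic proteases and Ctsa is a serine carboxypeptidase. In antigen-presenting cells they degrade the invariant chain of MHC class II and cut antigens, and in cytotoxic lymphocytes cathepsin C removes the propeptide of granzymes.

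Transcripts of the sort markers separated the populations. Klra5, whose family is open to cross-hybridisation, averaged 11.40 ± 0.103 in Ly49E+CD8aa+ cells and 11.43 ± 0.0654 in Ly49E+CD8aa- cells, and 6.59 ± 0.982 in Ly49E-CD8aa+ cells (log2, SD, n = 3 each). Cd8a averaged 12.55 ± 0.0668 in Ly49E+CD8aa+ cells and 11.42 ± 0.143 in Ly49E+CD8aa- cells, and 12.58 ± 0.0669 in Ly49E-CD8aa+ cells. Cd8b1, the CD8 beta chain, averaged 5.28 ± 0.0271 and 8.34 ± 0.216 in the Ly49E+ populations in that order, and 5.30 ± 0.133 in Ly49E-CD8aa+ cells. Cd8a was thus lower in the cells sorted without CD8aa but lay far above the array medians there. Ptprc, which encodes CD45, averaged 11.82 to 11.85, and Cd3e, a chain of the CD3 complex that the sort excluded, was high in every population, at 11.75 ± 0.0374, 10.70 ± 0.467 and 11.67 ± 0.0884 in the same order. Array medians ran from 5.76 to 5.82. All values are log2 expression levels, and the number of arrays limits the precision. In RNA of a sorted population, fewer cells of a type and less RNA per cell cannot be told apart.

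Across the 3 populations, 2 of the 10 cathepsin genes differed by the moderated F test of limma, Ctsh (adjusted p = 0.00385) and Ctsl (adjusted p = 0.0259), where 2.03% of all genes did. Ctsh was low in the cells with both markers, and Ctsl was high in Ly49E-CD8aa+ cells. The other 8 did not pass, with adjusted p from 0.11 for Ctss to 0.961 for Ctse. Throughout, p-values were adjusted over all 19938 genes by the Benjamini-Hochberg method, a gene is called higher or lower where the adjusted p was under 0.05, and differences are the first-named population minus the second.

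**Figure D1:**
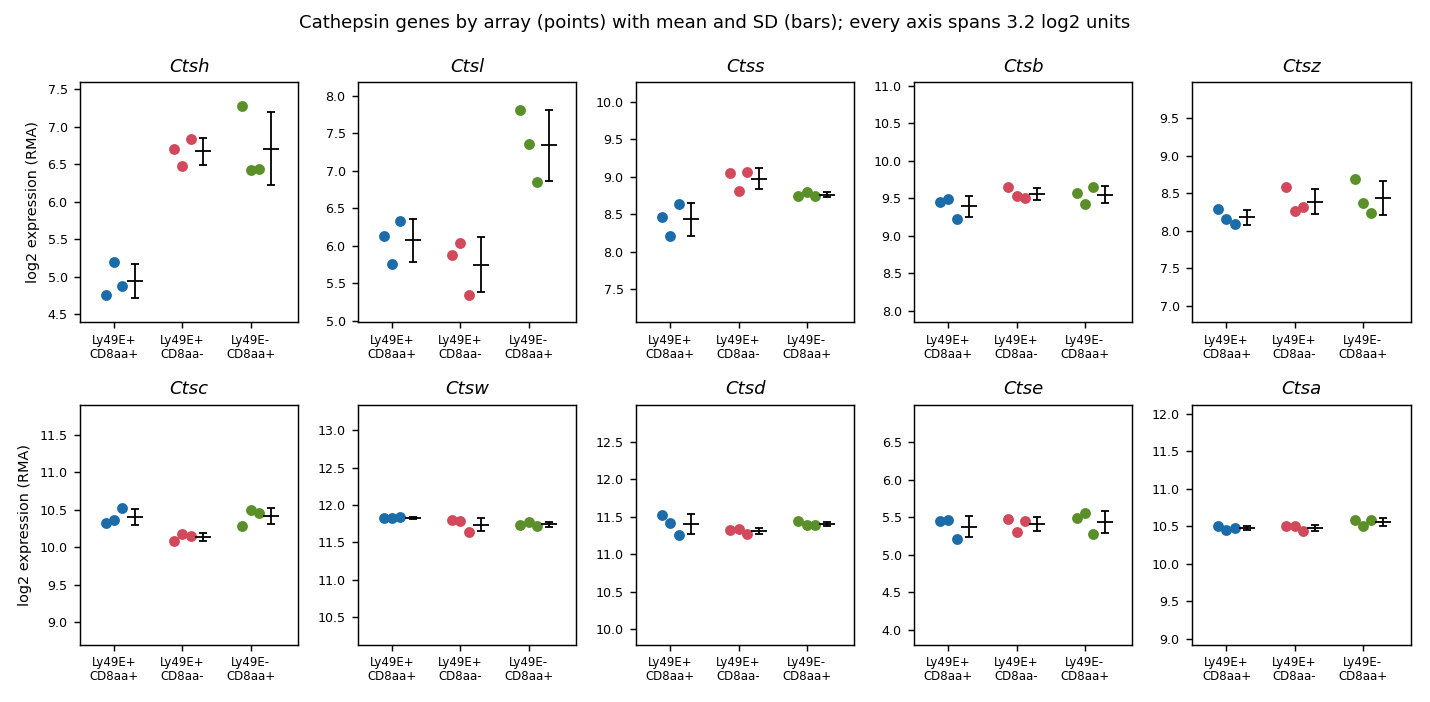
Log2 expression (y axis) of the 10 cathepsin genes on each array, by population (x axis), with points for arrays and bars for the mean and SD of 3 arrays. Ctsh sits between 4.75 and 5.19 in Ly49E+CD8aa+ cells and at 6.42 or above elsewhere, Ctsl sits at 6.85 or above only in Ly49E-CD8aa+ cells, and the points of the lower row lie close together.

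Ctsh, an aminopeptidase among the cysteine cathepsins, gave the widest separation. Its level was 4.75, 5.19 and 4.88 in Ly49E+CD8aa+ cells, against 6.70, 6.48 and 6.84 in Ly49E+CD8aa- cells and 7.27, 6.42 and 6.43 in Ly49E-CD8aa+ cells. The cells with both markers lay below all 6 other arrays, and the other populations overlapped. Against Ly49E+CD8aa- cells, Ctsh was lower by a difference of -1.74 (SE 0.223, adjusted p = 0.00393 by limma), a 3.33-fold difference. Against Ly49E-CD8aa+ cells it was lower by a difference of -1.77 (SE 0.223, adjusted p = 0.0303), a 3.41-fold difference. The mean of Ctsh in Ly49E+CD8aa+ cells, 4.94, lay below the array medians, and whether its transcript was detected there was not tested, so both folds are between measured values and may understate the difference in transcript. These comparisons share the Ly49E+CD8aa+ arrays. Between Ly49E+CD8aa- and Ly49E-CD8aa+ cells the Ctsh difference was -0.03 with a 95% interval from -0.54 to 0.47.

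The call of Ctsh against Ly49E+CD8aa- cells held in each of the 16 alternatives run, with adjusted p from 0.000467 to 0.0259. Against Ly49E-CD8aa+ cells the Ctsh difference stayed between -1.91 and -1.49, but among fits with fewer arrays the call was lost without each of replicates 1, 2 and 3 of Ly49E+CD8aa+ cells (adjusted p = 0.171, 0.122 and 0.138), without each of replicates 1, 2 and 3 of Ly49E+CD8aa- cells (0.0774, 0.0766 and 0.074), without replicate 3 of Ly49E-CD8aa+ cells (0.0724) and in a fit of the 6 arrays alone (0.273).

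Ctsl, a cysteine endopeptidase that processes the invariant chain in thymic epithelium, was highest in Ly49E-CD8aa+ cells, the only population without Ly49E. It read 6.13, 5.75 and 6.32 in Ly49E+CD8aa+ cells, 5.87, 6.03 and 5.34 in Ly49E+CD8aa- cells, and 7.80, 7.36 and 6.85 in Ly49E-CD8aa+ cells. Each Ly49E-CD8aa+ array lay above all 6 arrays of Ly49E+ cells, which overlapped among themselves. Ctsl was lower in Ly49E+CD8aa- cells relative to Ly49E-CD8aa+ cells by a difference of -1.59 (SE 0.26, limma adjusted p = 0.0137), a 3.01-fold difference. Those populations differ in both Ly49E and CD8aa. The Ctsl difference of Ly49E+CD8aa+ minus Ly49E-CD8aa+ cells was -1.27 (95% interval -1.86 to -0.68) and did not pass (adjusted p = 0.299). Within Ly49E+ cells, Ly49E+CD8aa+ minus Ly49E+CD8aa-, it was 0.32 (95% interval -0.27 to 0.91, adjusted p = 0.785). The call between Ly49E+CD8aa- and Ly49E-CD8aa+ cells was lost without replicate 3 of Ly49E+CD8aa- cells (adjusted p = 0.0547), without replicate 2 of Ly49E-CD8aa+ cells (adjusted p = 0.0594) and in a fit of the 6 arrays alone (adjusted p = 0.0655).

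Ctss, the cysteine cathepsin that trims the invariant chain in B cells and dendritic cells, came nearest to the threshold among the rest. Its arrays read 8.46, 8.21 and 8.64 in Ly49E+CD8aa+ cells, 9.05, 8.82 and 9.06 in Ly49E+CD8aa- cells, and 8.74, 8.80 and 8.74 in Ly49E-CD8aa+ cells. No pair of populations overlapped, with Ly49E+CD8aa+ at the bottom and Ly49E+CD8aa- at the top. The Ctss difference of Ly49E+CD8aa+ minus Ly49E+CD8aa- cells was -0.54 (95% interval -0.80 to -0.29), just outside the threshold (limma adjusted p = 0.0532). It passed in some alternatives, among them the fit without replicate 3 of Ly49E+CD8aa+ cells (adjusted p = 0.0325), the fit with arrays centred on their medians (adjusted p = 0.043) and the fit with dim rows left out (adjusted p = 0.0399). Ctss differences from Ly49E-CD8aa+ cells were -0.33 in Ly49E+CD8aa+ (95% interval -0.58 to -0.07, adjusted p = 1) and 0.21 in Ly49E+CD8aa- cells (95% interval -0.04 to 0.47, adjusted p = 0.582).

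Upstream sequence was held for 6 of the 10 genes, in 7 windows from 250 bases before to 50 after an annotated start (RefSeq, GRCm38.p6). Those of Ctsl, the called gene with an entry, of Ctss, the gene next to the threshold, and of Ctsd, a gene called in no comparison, are shown 5′ to 3′ in lower case. Capitals mark matches on either strand to 5 motifs that were searched, namely the E-box CACGTG, its longer form TCACGTG that factors of lysosomal genes such as TFEB bind, the core of the interferon-stimulated response element (GAAA and GAAA with 2 bases between), the STAT site TTCNNNGAA, and GAGGAAGT, a form of the PU.1 site.
Ctsl, chr13:64370471-64370770, - strand: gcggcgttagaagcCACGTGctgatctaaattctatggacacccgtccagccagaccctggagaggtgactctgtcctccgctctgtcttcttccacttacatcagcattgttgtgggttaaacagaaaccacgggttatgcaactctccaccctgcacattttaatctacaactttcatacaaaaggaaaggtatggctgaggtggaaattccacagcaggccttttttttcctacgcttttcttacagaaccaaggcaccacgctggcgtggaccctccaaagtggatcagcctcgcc
Ctss, chr3:95526536-95526835, + strand: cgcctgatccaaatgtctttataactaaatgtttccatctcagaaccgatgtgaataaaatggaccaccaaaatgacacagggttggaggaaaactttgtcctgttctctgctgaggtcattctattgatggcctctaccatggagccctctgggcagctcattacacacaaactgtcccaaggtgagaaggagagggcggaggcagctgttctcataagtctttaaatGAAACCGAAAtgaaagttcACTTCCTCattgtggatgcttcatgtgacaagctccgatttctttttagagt
Ctsd, chr7:142387778-142388077, - strand: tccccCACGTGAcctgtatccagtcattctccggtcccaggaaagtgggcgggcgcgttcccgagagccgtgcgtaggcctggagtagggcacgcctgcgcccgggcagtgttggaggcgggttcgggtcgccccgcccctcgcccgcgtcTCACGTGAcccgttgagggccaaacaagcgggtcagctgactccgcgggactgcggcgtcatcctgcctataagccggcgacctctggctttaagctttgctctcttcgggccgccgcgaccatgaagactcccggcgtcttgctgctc

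In the Ctsl window the match was a single CACGTG. The Ctss window held the interferon element core starting 21 bases before the start and GAGGAAGT on the opposite strand starting 2 bases before it, with no E-box. The Ctsd window held CACGTG in 2 places, both within the longer TCACGTG or its complement, and a window of Ctsa also held it in 2 places. The Ctsc window, not shown, had TTCNNNGAA and GAGGAAGT, and that of Ctsz had none of the 5. Among 32851 windows of the same length, CACGTG was in 7.15%, TCACGTG in 3.77%, the interferon element core in 3.44%, TTCNNNGAA in 8.3% and GAGGAAGT in 3.2%. The 2 E-box motifs overlap, so their shares do too. A match describes letters in a window, not a bound site.

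None of the remaining cysteine cathepsins passed the test in any comparison. Ctsc, the dipeptidyl peptidase that activates granzymes, read 10.33, 10.37 and 10.52 in Ly49E+CD8aa+ cells, 10.08, 10.18 and 10.15 in Ly49E+CD8aa- cells, and 10.29, 10.49 and 10.46 in Ly49E-CD8aa+ cells. Ly49E+CD8aa- arrays lay below all 6 arrays of CD8aa+ cells. The Ctsc difference of Ly49E+CD8aa+ minus Ly49E+CD8aa- cells was 0.27 (95% interval 0.09 to 0.45, adjusted p = 0.232), and that of Ly49E+CD8aa- minus Ly49E-CD8aa+ cells was -0.28 (95% interval -0.46 to -0.09, adjusted p = 0.189), neither past the threshold.

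Ctsw, a cathepsin known from NK cells and CD8 T cells, was high in every population and passed in no comparison. Its arrays read 11.82, 11.82 and 11.84 in Ly49E+CD8aa+ cells, 11.79, 11.79 and 11.63 in Ly49E+CD8aa- cells, and 11.74, 11.77 and 11.72 in Ly49E-CD8aa+ cells. The largest of its 3 differences, of Ly49E+CD8aa+ minus Ly49E+CD8aa- cells, was 0.09 with a 95% interval from -0.06 to 0.23.

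Ctsb, an endopeptidase and carboxypeptidase, and Ctsz, a carboxypeptidase, passed in no comparison. Ctsb averaged 9.39 ± 0.142, 9.56 ± 0.0796 and 9.55 ± 0.115 in Ly49E+CD8aa+ cells, Ly49E+CD8aa- cells and Ly49E-CD8aa+ cells. Ctsz averaged 8.18 ± 0.104, 8.39 ± 0.170 and 8.44 ± 0.229 in the same order (SD, n = 3 each). Both were lowest on average in the cells with both markers, by differences of -0.17 and -0.21 from Ly49E+CD8aa- cells and of -0.16 and -0.26 from Ly49E-CD8aa+ cells. None of these passed, and the Ctsz interval against Ly49E-CD8aa+ cells ran from -0.54 to 0.03.

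The aspartic and serine cathepsins also passed in no comparison, with narrow intervals. Ctsd, the main aspartic protease of lysosomes, averaged 11.40 ± 0.132 in Ly49E+CD8aa+, 11.31 ± 0.0361 in Ly49E+CD8aa- cells and 11.40 ± 0.0273 in Ly49E-CD8aa+ cells. Ctsa, which also protects neuraminidase and beta-galactosidase in the lysosome, averaged 10.47 ± 0.0252, 10.48 ± 0.0364 and 10.56 ± 0.0504 in the same order. Ctse, an aspartic protease of endosomes, averaged 5.37 ± 0.140, 5.41 ± 0.0896 and 5.44 ± 0.148, below the array medians, and whether its transcript was detected was not tested. For Ctsd the 95% intervals of all 3 differences lay between -0.26 and 0.26, for Ctsa between -0.22 and 0.13, and for Ctse between -0.29 and 0.19.

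**Figure D2:**
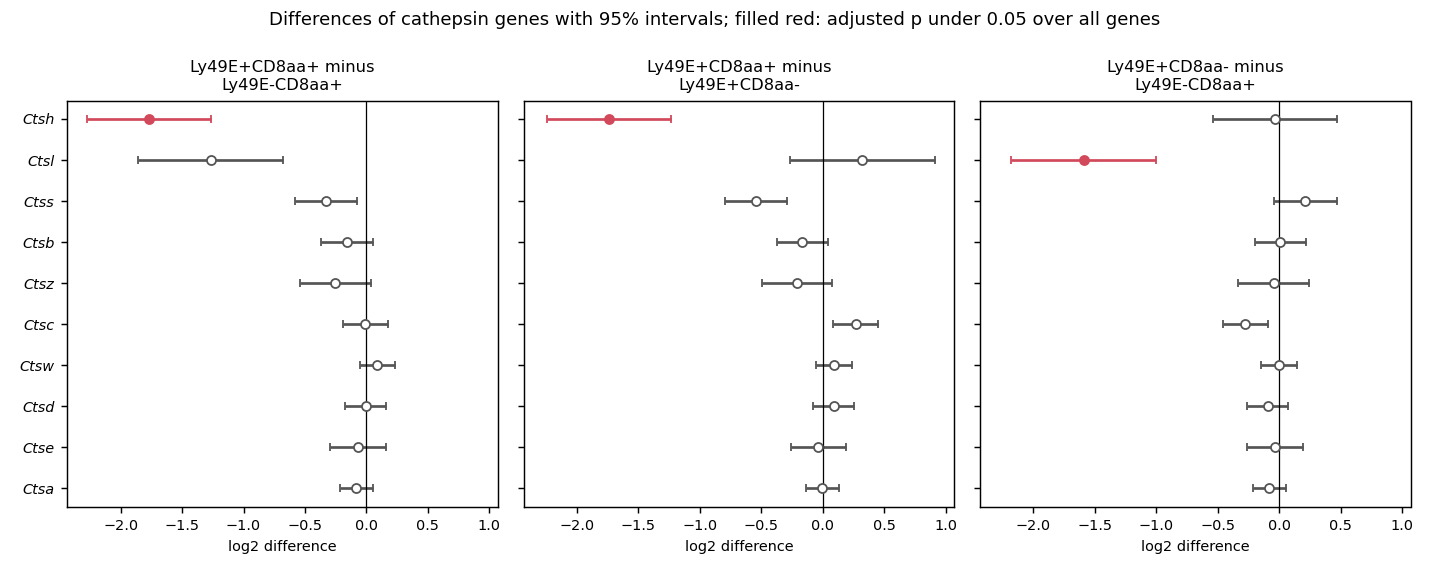
Log2 difference (x axis) of each cathepsin gene (y axis) in the 3 comparisons, with 95% intervals from the model, filled red where the adjusted p was under 0.05. Ctsh is called at -1.77 and -1.74 on the 2 sides of the Ly49E+CD8aa+ population, and Ctsl at -1.59 between the populations with a single marker.

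Counted over the family, Ly49E+CD8aa+ against Ly49E-CD8aa+ cells gave 1 lower and 0 higher of 10, where 0.13% of all genes were called, with 0.11% of all genes lower and 0.0201% higher. At an unadjusted p under 0.05 by limma, 3 were lower (Ctsh, Ctsl and Ctss) and 0 higher, against 4.18% of all genes in either direction, 2.48% lower and 1.71% higher. The arrays did not overlap in 4 of 10, against 6.25% of all genes. In this comparison 9 of 10 differences were below 0, with a median of -0.12 beside -0.000488 over all genes, and Ctsw alone was above 0. Of those below 0, Ctsc, Ctsd and Ctse changed sign in at least 1 alternative. The count below 0 was 6 of 10 in Ly49E+CD8aa+ against Ly49E+CD8aa- cells and 8 of 10 in Ly49E+CD8aa- against Ly49E-CD8aa+ cells. The share of all genes below 0 was not counted.

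Ly49E+CD8aa+ against Ly49E+CD8aa- cells also gave 1 lower and 0 higher of 10, where 1.7% of all genes were called, 1.22% lower and 0.476% higher. At an unadjusted p under 0.05, 2 were lower (Ctsh and Ctss) and 1 higher (Ctsc), against 9.43% of all genes in either direction, 4.47% lower and 4.96% higher. The arrays did not overlap in 5 of 10, against 12.9% of all genes, and the median difference was -0.02 beside 0.0253 over all genes.

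Ly49E+CD8aa- against Ly49E-CD8aa+ cells gave 1 lower, Ctsl, and 0 higher of 10, where 2.15% of all genes were called, 0.802% lower and 1.35% higher. At an unadjusted p under 0.05, 2 were lower (Ctsl and Ctsc) and 0 higher, against 10.4% of all genes in either direction, 5.89% lower and 4.55% higher. The arrays did not overlap in 4 of 10, against 12.7% of all genes, and the median difference was -0.0392 beside -0.0243 over all genes. The members were chosen with earlier results of these arrays known, so these counts describe the family and are no test of it.

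Inhibitors of cathepsins and related granule proteases were counted as well, in a list chosen with earlier results of these arrays known. Of 18 measured inhibitor genes of 22 listed, 3 were lower and 1 higher in Ly49E+CD8aa+ cells relative to Ly49E+CD8aa- cells, 3 higher and 2 lower in Ly49E+CD8aa- cells relative to Ly49E-CD8aa+ cells, and 0 were called between Ly49E+CD8aa+ and Ly49E-CD8aa+ cells, where 1 was lower at an unadjusted p under 0.05 by limma. The list medians were -0.0533, 0.0297 and 0.0398 in the same order of comparisons, in which 1.7%, 2.15% and 0.13% of all genes were called.

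Ctla2a, an inhibitor known from the mouse that resembles the propeptide of cathepsins and acts on cathepsin L, was high in the cells sorted without CD8aa. It read 4.19, 4.74 and 4.25 in Ly49E+CD8aa+ cells, 7.52, 7.42 and 7.39 in Ly49E+CD8aa- cells, and 4.16, 4.41 and 4.24 in Ly49E-CD8aa+ cells. Its difference was -3.05 for Ly49E+CD8aa+ minus Ly49E+CD8aa- cells (SE 0.138, limma adjusted p = 3.82e-06) and 3.17 for Ly49E+CD8aa- minus Ly49E-CD8aa+ cells (SE 0.138, adjusted p = 3.46e-06). In both CD8aa+ populations its mean lay under the lowest lower quartile of the arrays, at 4.39 and 4.27, so these differences are between measured values, one of them among the dimmest, and may understate the difference in transcript. The similar gene Ctla2b, for which cross-hybridisation with Ctla2a was not tested, had differences of -1.57 and 1.38, and its second call was lost without replicate 3 of Ly49E+CD8aa- cells (adjusted p = 0.0512) and without replicate 1 of Ly49E-CD8aa+ cells (adjusted p = 0.0539).

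Serpinb1a, a serpin whose human counterpart inhibits neutrophil elastase and cathepsin G, followed the same order of populations. Its arrays read 6.17, 5.08 and 5.58 in Ly49E+CD8aa+ cells, 9.05, 8.73 and 8.62 in Ly49E+CD8aa- cells, and 6.21, 5.10 and 5.13 in Ly49E-CD8aa+ cells. The differences were -3.19 for Ly49E+CD8aa+ minus Ly49E+CD8aa- cells (SE 0.335, adjusted p = 0.0012) and 3.32 for Ly49E+CD8aa- minus Ly49E-CD8aa+ cells (SE 0.335, adjusted p = 0.000732).

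Serpinb6a, a serpin whose human counterpart inhibits cathepsin G, ran the other way, with differences of 0.77 (adjusted p = 0.0401) and -0.73 (adjusted p = 0.0435). Leaving out 1 array ended the first of these calls for 7 of 9 arrays (all but replicate 2 of Ly49E+CD8aa+ cells and replicate 1 of Ly49E+CD8aa- cells, adjusted p from 0.0703 to 0.157) and the second for 7 of 9 (all but replicate 2 of Ly49E+CD8aa+ cells and replicate 1 of Ly49E+CD8aa- cells, adjusted p from 0.0671 to 0.15). Cst7, or cystatin F, an inhibitor in the granules of cytotoxic cells that targets cathepsin C, was lower in Ly49E+CD8aa- cells relative to Ly49E-CD8aa+ cells by a difference of -0.34 (SE 0.0689, adjusted p = 0.0386), and is named after its values were seen. The Cst7 call was lost for 8 of 9 arrays left out in turn (all but replicate 1 of Ly49E+CD8aa- cells, adjusted p from 0.0569 to 0.12), and with arrays centred on their medians (adjusted p = 0.0907). Cst3 and Cstb, cystatins that inhibit cysteine cathepsins, were called in no comparison and averaged 11.16 ± 0.0523 and 10.17 ± 0.0269 in Ly49E+CD8aa+ cells, 10.92 ± 0.127 and 10.24 ± 0.0803 in Ly49E+CD8aa- cells, and 11.12 ± 0.117 and 10.23 ± 0.146 in Ly49E-CD8aa+ cells. Both are named after their values were seen.

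**Figure D3:**
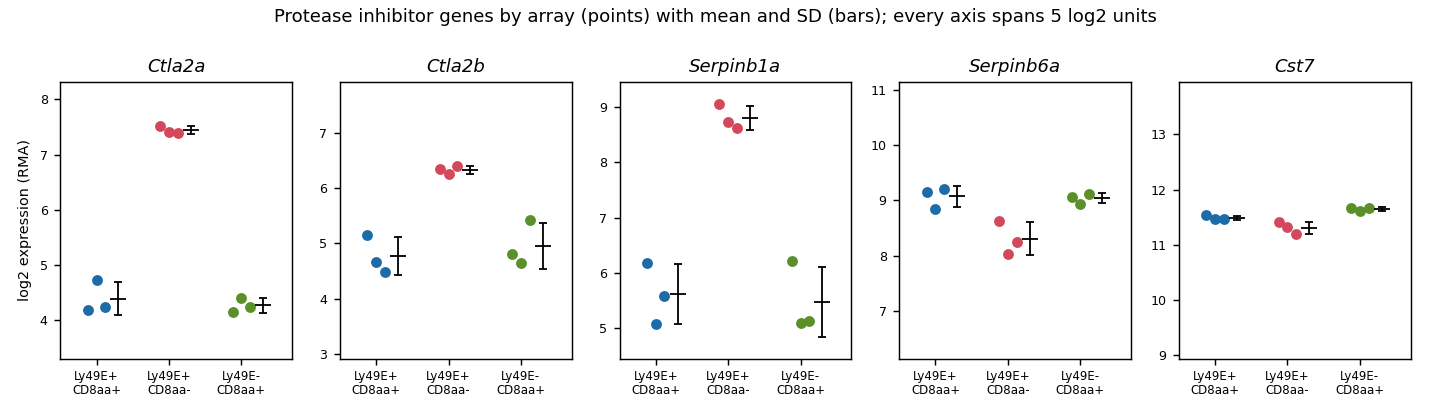
Log2 expression (y axis) of 5 inhibitor genes on each array, by population (x axis), with points for arrays and bars for the mean and SD of 3 arrays. Ctla2a, Ctla2b and Serpinb1a are high in Ly49E+CD8aa- cells, where Ctla2a reads 7.39 to 7.52, and Serpinb6a is lowest on average there.

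Other genes of the lysosome were counted in the same way. In Ly49E+CD8aa+ against Ly49E-CD8aa+, Ly49E+CD8aa+ against Ly49E+CD8aa-, and Ly49E+CD8aa- against Ly49E-CD8aa+ cells, 0.13%, 1.7% and 2.15% of all genes were called. At an unadjusted p under 0.05 by limma, 4.18%, 9.43% and 10.4% passed. Counts of 0 or 1 in lists this short say little beside those shares. Among 13 further cathepsin and cathepsin-like genes, placental ones among them, 0 were called and 0 passed an unadjusted p under 0.05 by limma in any comparison, and 9 of them averaged under the lowest lower quartile of the arrays in each population. Genes of cathepsin processing and trafficking gave 0 calls among 11 measured, with 1 higher and 3 lower, 2 higher and 0 lower, and 0 higher and 3 lower at an unadjusted p under 0.05 in Ly49E+CD8aa+ against Ly49E-CD8aa+, Ly49E+CD8aa+ against Ly49E+CD8aa-, and Ly49E+CD8aa- against Ly49E-CD8aa+ cells. Of 18 genes of the lysosomal membrane and its acidification, Cd63, a tetraspanin of lysosomes and granules, was higher in Ly49E+CD8aa+ cells relative to Ly49E+CD8aa- cells (difference 0.58, adjusted p = 0.00387), the single call over the 3 comparisons. Of 27 other lysosomal hydrolases, Hexa, the alpha subunit of hexosaminidase, was lower in Ly49E+CD8aa- cells relative to Ly49E-CD8aa+ cells (difference -0.52, adjusted p = 0.013), again the single call, and it was lost without replicate 3 of Ly49E+CD8aa- cells (adjusted p = 0.0581), replicate 1 of Ly49E-CD8aa+ cells (0.0529) and replicate 3 of Ly49E-CD8aa+ cells (0.0574). Of 8 factors of lysosomal biogenesis, TFEB's gene among them, 0 were called and 0 passed an unadjusted p under 0.05 in any comparison.

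Genes of MHC class II presentation, where Ctss and Ctsl act on the invariant chain, were set beside them. Of 13 measured, partly open to cross-hybridisation, H2-Aa was lower in Ly49E+CD8aa+ cells relative to Ly49E+CD8aa- cells (difference -1.08, adjusted p = 0.0198), where 1.22% of all genes were lower. That call was lost without replicates 2 and 3 of Ly49E+CD8aa+ cells (adjusted p = 0.0595 and 0.0768) and replicates 2 and 3 of Ly49E+CD8aa- cells (0.0763 and 0.0622). Against Ly49E-CD8aa+ cells 0 of 13 were called in Ly49E+CD8aa+, with 6 lower and 0 higher at an unadjusted p under 0.05 by limma and a median of -0.359. The unadjusted counts were 5 lower and 0 higher in Ly49E+CD8aa+ against Ly49E+CD8aa- cells, with a median of -0.0398. In Ly49E+CD8aa- against Ly49E-CD8aa+ cells, where 0 were called, they were 3 lower and 1 higher, with a median of -0.103. Of all genes, 2.48%, 4.47% and 5.89% were lower at that unadjusted threshold, in the same order of comparisons. Cd74, the invariant chain, is named after its values were seen. It read 6.84, 6.47 and 6.70 in Ly49E+CD8aa+ cells, 7.19, 7.24 and 7.01 in Ly49E+CD8aa- cells, and 8.34, 7.37 and 7.90 in Ly49E-CD8aa+ cells, so that no pair of populations overlapped. The Cd74 difference of Ly49E+CD8aa+ minus Ly49E-CD8aa+ cells was -1.20 (SE 0.212, adjusted p = 0.146).

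Of 18 genes of granule proteases and granule contents, Prf1, which encodes perforin, was the only one called. Of all genes, 0.13% to 2.15% were called in a comparison. It was higher in Ly49E+CD8aa+ cells relative to Ly49E+CD8aa- cells (difference 0.58, adjusted p = 0.0197) and lower in Ly49E+CD8aa- cells relative to Ly49E-CD8aa+ cells (difference -0.76, adjusted p = 0.00393). The first Prf1 call was lost without replicates 1 and 3 of Ly49E+CD8aa+ cells (adjusted p = 0.0856 and 0.0896) and replicates 1 and 3 of Ly49E+CD8aa- cells (0.0834 and 0.0703). Gzma and Gzmb, granzymes that cathepsin C activates, averaged 12.85 ± 0.0519 and 12.73 ± 0.0124 in Ly49E+CD8aa+ cells, 12.77 ± 0.0452 and 12.56 ± 0.0436 in Ly49E+CD8aa- cells, and 12.84 ± 0.0882 and 12.75 ± 0.0702 in Ly49E-CD8aa+ cells. They were called in no comparison and are named for their link to Ctsc, outside the rule for named genes.

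Some markers of antigen-presenting cells differed in the same comparison as Ctsl. Of 18 dendritic cell markers, 7 were lower and 1 higher in Ly49E+CD8aa- cells relative to Ly49E-CD8aa+ cells, against 0.802% and 1.35% of all genes. The lower ones included Siglech, a lectin of plasmacytoid dendritic cells (difference -1.87), Cd209d (-1.97), Pld4 (-1.86), Ly6d (-1.45) and Itgae (-0.34). The higher one was Batf3 (0.83, limma adjusted p = 0.0448), named after its values were seen. Its call was lost for 8 of 9 arrays left out in turn (adjusted p from 0.0524 to 0.161). In Ly49E+CD8aa+ against Ly49E-CD8aa+ cells 4 were lower (Siglech, Cd209d, Pld4 and Ly6d) and 0 higher, against 0.11% and 0.0201% of all genes. At an unadjusted p under 0.05 by limma, 13 of 18 were lower and 0 higher there, against 2.48% and 1.71% of all genes. The list median was -0.457. The unadjusted counts were 11 lower and 3 higher, with a median of -0.396, in Ly49E+CD8aa- against Ly49E-CD8aa+ cells, and 4 lower and 1 higher in Ly49E+CD8aa+ against Ly49E+CD8aa- cells. In the first of these comparisons 5.89% of all genes were lower and 4.55% higher, and in the second 4.47% and 4.96%. In Ly49E+CD8aa+ against Ly49E+CD8aa- cells, where Ctsh was called, 1 was lower, Irf4 (-0.69), and 1 higher, Itgae (0.31), against 1.22% and 0.476% of all genes. Leaving out 1 array ended the Irf4 call for 3 of 9 arrays (replicates 2 and 3 of Ly49E+CD8aa+ cells and replicate 3 of Ly49E+CD8aa- cells, adjusted p from 0.0584 to 0.0704) and the Itgae call for all but replicate 1 of Ly49E-CD8aa+ cells (0.0561 to 0.152). Summed over the list, the level per array (log2 of the sum) was 12.75 to 12.82 in Ly49E+CD8aa+, 12.59 to 12.70 in Ly49E+CD8aa- and 12.86 to 13.10 in Ly49E-CD8aa+ cells. Itgae, which intraepithelial lymphocytes also express, made up 57.3 to 68.5% of that sum and Itgax 7.7 to 16.1%. Without both, it was 10.52 to 10.58, 10.59 to 10.81 and 10.93 to 11.52 in the same order. Of the 18 markers, 4, 4 and 1 lay under the lowest lower quartile of the arrays, and Xcr1 lay there in every population. Cd209d lay there in both Ly49E+ populations, so its differences may be understated. Of 17 macrophage and monocyte markers, Cybb, the phagocyte oxidase subunit, and Mpeg1, a perforin-like protein, were lower relative to Ly49E-CD8aa+ cells, by -2.48 and -1.75 in Ly49E+CD8aa+ cells and by -2.39 and -1.95 in Ly49E+CD8aa- cells, and 0 were called between Ly49E+CD8aa+ and Ly49E+CD8aa- cells, where 2 were higher at an unadjusted p under 0.05. The sum over the macrophage list was 13.71 to 13.75 in Ly49E+CD8aa+, 13.59 to 13.61 in Ly49E+CD8aa- and 13.75 to 13.79 in Ly49E-CD8aa+ cells. Tyrobp and Fcer1g, signalling adaptors that NK cells also express, made up 93.1 to 96.1% of it, and without both it was 9.16 to 9.19, 8.9 to 9.0 and 9.47 to 9.9 in the same order. In each population 3 of the 17 lay under the lowest lower quartile, Adgre1 and Ms4a7 in all of them, and the other 14 above it. Cybb lay under it in both Ly49E+ populations, so its differences may be understated. Above that quartile, Csf1r, Cd14, Fcgr1, Mrc1, Cd163, C1qa, C1qb and C1qc still averaged below the array medians in every population. They were called in no comparison, and Cd68, Tyrobp and Fcer1g averaged above the medians. These genes are named after their values were seen. Whether these transcripts came from antigen-presenting cells or from the sorted lymphocytes was not tested, nor was their relation to Ctsl and Ctsh.

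The calls of these markers between Ly49E+CD8aa+ and Ly49E-CD8aa+ cells varied in stability. Those of Siglech, Ly6d and Cybb held without each array in turn but were lost in a fit of the 6 arrays alone (adjusted p = 0.064, 0.101 and 0.101). Mpeg1 lost its call for 6 of 9 arrays left out (adjusted p from 0.0573 to 0.101), Pld4 for 7 (0.0692 to 0.201) and Cd209d for 5 (0.0509 to 0.101). In each of these 3 the arrays included replicates 1, 2 and 3 of Ly49E+CD8aa+ cells and replicates 1 and 2 of Ly49E+CD8aa- cells, with replicate 1 of Ly49E-CD8aa+ cells for Mpeg1, and replicate 3 of Ly49E+CD8aa- cells and replicate 3 of Ly49E-CD8aa+ cells for Pld4.

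No epithelial marker was called, where 0.13% to 2.15% of all genes were called in a comparison. Some enterocyte transcripts were bright in every population, with means of 11.13 to 11.20 for Apoa1 and 10.07 to 10.34 for Fabp2. Others, such as Sis and Krt19, averaged below the array medians. These genes are named after their values were seen. Of 20 enterocyte markers 0 were called in any comparison, with 1 to 2 higher and 0 to 1 lower at an unadjusted p under 0.05 by limma, and their sum was 13.31 to 13.81 in Ly49E+CD8aa+, 13.05 to 13.81 in Ly49E+CD8aa- and 13.00 to 13.85 in Ly49E-CD8aa+ cells. The highest sum in each population was that of replicate 1, at 13.81, 13.81 and 13.85, and the secretory epithelium list gave its highest sums, 11.31, 11.58 and 11.07, on the same arrays. Replicate 1 of Ly49E-CD8aa+ cells also had the highest Ctsh and Ctsl. Replicate 1 of Ly49E+CD8aa+ cells had the lowest Ctsh of all arrays, 4.75, and a Ctsl of 6.13, between its replicates 2 and 3. In replicate 1 of Ly49E+CD8aa- cells Ctsh (6.70) and Ctsl (5.87) also lay between those of replicates 2 and 3. The dendritic cell sum without Itgae and Itgax was highest on replicate 1 of Ly49E-CD8aa+ cells too, at 11.52 against 10.93 and 11.1 on replicates 2 and 3. The macrophage sum without Tyrobp and Fcer1g was 9.9 there, against 9.54 and 9.47. How these sums relate to Ctsh and Ctsl on that array was not tested. Without that array, the Ctsh difference from Ly49E-CD8aa+ cells was -1.49 in Ly49E+CD8aa+ cells and the Ctsl difference was -1.36 in Ly49E+CD8aa- cells, both still called.

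**Figure D4:**
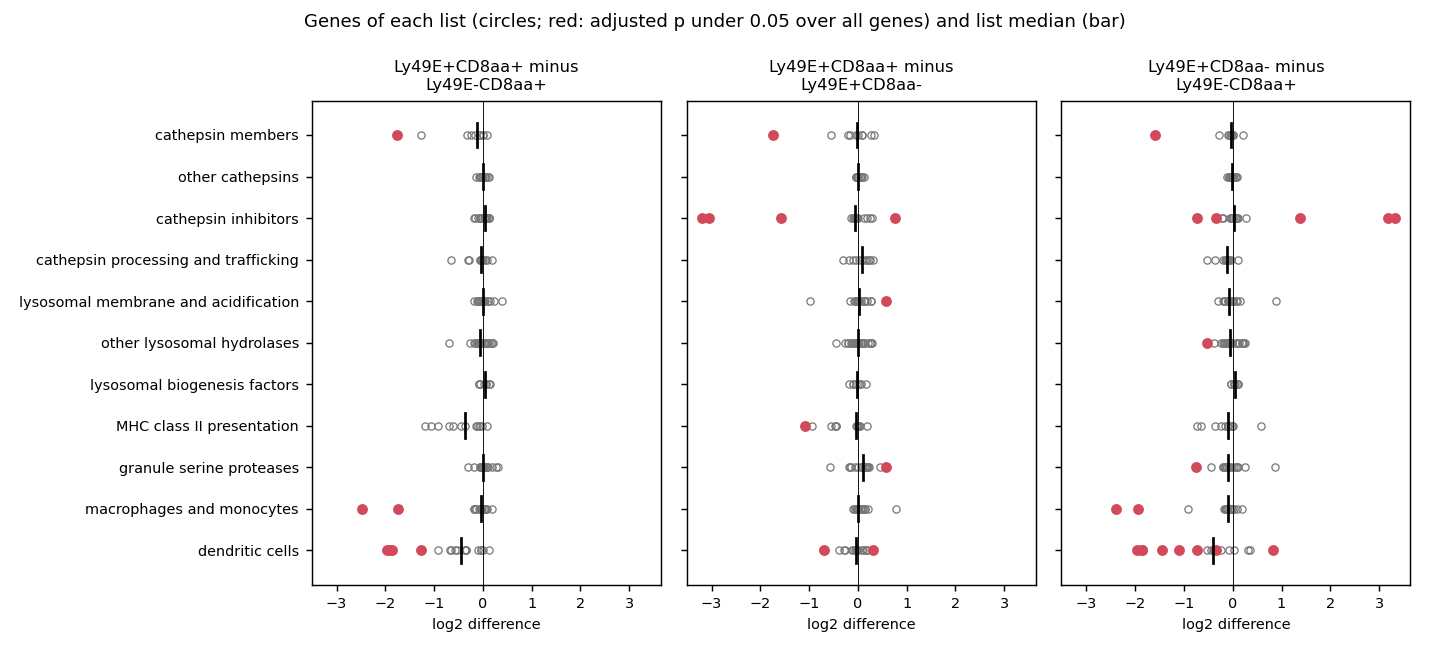
Log2 difference (x axis) of the genes in each list (y axis) in the 3 comparisons, with circles for genes, red where the adjusted p was under 0.05, and a bar for the list median. Of the 10 cathepsins 1 is called in each comparison, against 0.13% to 2.15% of all genes. Calls among inhibitors reach -3.19 and 3.32, and the median of the dendritic cell markers lies below 0 in both comparisons with Ly49E-CD8aa+ cells.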

How the data were processed

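The authors deposited log2 values for each transcript cluster on each array. RMA is named as the method in the submitters' processing notes. The values span 1.84 to 13.84, which fits a log2 scale. No source used here gives the RMA version, build or annotation. Of 35556 rows, 21789 had 1 gene symbol in the platform annotation, 1621 had several and 12146 were not listed, and only rows with 1 symbol were tested. Symbols were updated by gene identifier for 21698 rows, and the row with the highest mean stood for each of 999 genes with several, which left 19938 genes and no filter on dim rows. No detection calls were used.

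Populations were compared with limma 3.58.1 in R 4.3.3, with a mean for each population fitted to all 9 arrays, no block, moderated variances (prior degrees of freedom 3.08, residual 6), 2-sided tests and Benjamini-Hochberg adjustment. The fit was tested on simulated data. SE and 95% intervals are from the model. The members and the 17 gene lists were chosen with earlier results of these data known. Named were all members, the sort markers, up to 4 called genes of a list with the largest difference in a comparison, and for each called member the 3 other genes most like it. The alternatives tried were a fit of 6 arrays, a filter at the median row mean, quantile normalization again, centring on array medians, a robust fit with an intensity trend, a replicate block, the mean of a gene's rows, a minimum difference of 1, and each array left out in turn.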

Additional observations from a re-analysis of the deposited data

How the results depend on the processing

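Of 30 differences of the 10 cathepsin genes, 17 kept their direction and their side of the threshold in all alternatives, up to 16 each. Calls changed in 3, Ctsh and Ctss as given above and Ctsl between Ly49E+CD8aa- and Ly49E-CD8aa+ cells, and signs changed in 10, none of them called. Lower members in Ly49E+CD8aa+ against Ly49E-CD8aa+ cells numbered 0 with the replicate block, where Ctsh had an adjusted p of 0.0795, 0 with the 6 arrays alone and 0 to 1 without each array. Against Ly49E+CD8aa- cells they numbered 2 with the filter, with centring and with the replicate block (Ctss adjusted p = 0.0446), and 1 to 2 without each array. In Ly49E+CD8aa- against Ly49E-CD8aa+ cells they numbered 0 with the 6 arrays alone and 0 to 1 without each array.

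Over all genes, the 4 higher and 22 lower in Ly49E+CD8aa+ against Ly49E-CD8aa+ cells became 0 and 0 with the 6 arrays alone, and 1 to 4 and 4 to 28 without each array. The 22 became 12 with the filter and 14 with the replicate block, and the 4 became 2 with a minimum difference of 1. The 95 higher and 244 lower against Ly49E+CD8aa- cells became 16 and 142 with that minimum and 55 to 87 and 184 to 234 without each array, and the 95 became 62 with the 6 arrays. In Ly49E+CD8aa- against Ly49E-CD8aa+ cells the 269 higher and 160 lower became 154 and 35 with the minimum and 186 to 250 and 82 to 130 without each array, and the 160 became 78 with the 6 arrays. The F test's 405 became 248 to 332 without each array. Some of these fits held fewer arrays or genes, and the causes of the changes were not tested.

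Signs turned in uncalled members near 0. In Ly49E+CD8aa+ against Ly49E-CD8aa+ cells, centring gave 0.0091 for Ctsc and 0.011 for Ctsd, and leaving out arrays gave -0.0719 to 0.031 for Ctsc, -0.0667 to 0.0641 for Ctsd and -0.151 to 0.0123 for Ctse. Against Ly49E+CD8aa- cells it gave -0.0247 to 0.0092 for Ctsa and -0.0872 to 0.0441 for Ctse. In Ly49E+CD8aa- against Ly49E-CD8aa+ cells, centring gave 0.0273 for Ctsw, quantile normalization 0.0059 for Ctse, and leaving out arrays gave -0.0519 to 0.0616 for Ctsb, -0.177 to 0.247 for Ctsh, -0.0289 to 0.0509 for Ctsw, -0.142 to 0.082 for Ctsz and -0.115 to 0.0265 for Ctse. Of 58 called differences of list genes, 35 were kept in all alternatives and 23 lost in at least 1. Same-numbered arrays had correlated deviations over 0.1 in 4 of 9 pairs (r from -0.0627 to 0.222), and an array correlated best with its own number in 10 of 18 cases. The 3 pairs of replicate 1 arrays had r of 0.172, 0.222 and 0.127, so these shared a deviation, but not every pair was over 0.1 and the numbers were not taken to pair the arrays. With the replicate block, 0 enterocyte and 0 secretory markers were called, as without it, and Pld4 was lost in Ly49E+CD8aa+ against Ly49E-CD8aa+ cells (adjusted p = 0.0904).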

Other observations

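Genes whose levels over the 9 arrays were most like those of the called cathepsins are given as a description, since 3 genes were picked from all others by their Pearson correlation and the arrays share their populations. Closest to Ctsh was Ifitm3, an interferon-induced membrane protein (r = 0.961), which averaged 5.16 ± 0.238 in Ly49E+CD8aa+ cells, 7.08 ± 0.257 in Ly49E+CD8aa- cells and 7.07 ± 0.602 in Ly49E-CD8aa+ cells. Mir30a (r = 0.943) and Olfr90 (r = 0.922) came next to Ctsh, but lay at low levels with small shifts, such as 4.29, 4.42 and 4.43 for Mir30a in the same order. Closest to Ctsl was Mef2c, a transcription factor of B cells and myeloid cells among others (r = 0.969), which averaged 4.64 ± 0.0591, 4.60 ± 0.0669 and 5.18 ± 0.207 in the same order. Coa4 (r = 0.956) and Wdr7 (r = 0.938) followed Ctsl, with Coa4 at 7.25, 7.10 and 7.52 and Wdr7 at 8.39, 8.24 and 8.61.

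Of 14 NK cell markers, 6 were lower and 1 higher in Ly49E+CD8aa+ cells relative to Ly49E+CD8aa- cells, against 1.22% and 0.476% of all genes. Klrk1 (-5.46), Ncr1 (-5.44), Klrc1 (-5.05) and Klre1 (-4.01) were the largest measured differences. Klrk1, Ncr1 and Klrc1 averaged under the lowest lower quartile of the arrays in Ly49E+CD8aa+ cells, so their differences may be understated and their order is not settled. In Ly49E+CD8aa- against Ly49E-CD8aa+ cells 6 were higher and 1 lower, against 1.35% and 0.802% of all genes. In Ly49E+CD8aa+ against Ly49E-CD8aa+ cells 0 were called, against 0.13% of all genes, and 1 was higher at an unadjusted p under 0.05 by limma. Among 13 B and plasma cell markers, Blnk was lower relative to Ly49E-CD8aa+ cells, by -0.74 in Ly49E+CD8aa+ cells and by -0.60 in Ly49E+CD8aa- cells. The first Blnk call was lost for 7 of 9 arrays left out in turn (all but replicates 2 and 3 of Ly49E-CD8aa+ cells, adjusted p from 0.0558 to 0.132). Blnk averaged under the lowest lower quartile of the arrays in Ly49E+CD8aa+ cells, so its first difference may be understated. Sdc1 was lower in Ly49E+CD8aa+ cells relative to Ly49E+CD8aa- cells (-0.47) and higher in Ly49E+CD8aa- cells relative to Ly49E-CD8aa+ cells (0.56), and its first call was lost for 7 of 9 arrays (all but replicate 2 of Ly49E+CD8aa- cells and replicate 1 of Ly49E-CD8aa+ cells, 0.0521 to 0.0973). Of 15 mast cell and granulocyte markers, Kit was lower in Ly49E+CD8aa+ cells relative to Ly49E+CD8aa- cells (-1.17) and higher in Ly49E+CD8aa- cells relative to Ly49E-CD8aa+ cells (1.29). Markers of secretory epithelium and of stroma and endothelium, 13 each, gave 0 calls in any comparison by limma, with 0 and up to 2 at an unadjusted p under 0.05 in a comparison.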
